A study of Mus musculus with 2 samples.

Results

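State 1 is one of 7 states that the authors assigned to single cells of the mouse melanoma lines B16F10 and B16F0 along a trajectory, and it is the state in which most B16F10 cells lie. Its members are the cells whose deposited annotation gives Monocle state 1. They number 1419 of 4156 cells, 1254 from B16F10 and 165 from B16F0. B16F10 is labelled a highly metastatic subclone, and B16F0 is labelled the parental line. Both are cultured lines derived from the B16 melanoma of the mouse and carry no treatment in the labels. Messenger RNA was counted at its 3' end in droplets, with unique molecular identifiers (UMIs), and each line was represented by 1 library. Every interval below is therefore a 95% interval that covers counting error only, no p-value is given, and the difference between lines cannot be told apart from the difference between libraries.

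A Monocle trajectory orders cells by the similarity of their expression and cuts the resulting tree into branches called states. In proliferating cultures such an order tends to follow the cell cycle, in which genes of DNA synthesis are transcribed before those of chromosome segregation. B16 cells are melanocytic, so their transcripts include enzymes and structural proteins of the pigment granule. The trajectory was made from the expression of these same cells, and the genes that set state 1 apart within a line are given here as a description.

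State 1 held 1254 of 1574 B16F10 cells, a share of 79.7% (exact Clopper-Pearson interval 77.6% to 81.6%), and 165 of 2582 B16F0 cells, a share of 6.39% (5.48% to 7.40%). Of the remaining B16F10 cells, 319 were in state 7 and 1 in state 5. B16F0 cells were spread over state 2 with 186 cells, state 3 with 2 cells, state 4 with 547 cells, state 5 with 659 cells, state 6 with 569 cells and state 7 with 454 cells. State 1 and state 7 were thus the states with more than 1 cell from both lines. The summed counts of state 1 came to 46425813 UMIs in B16F10 and 6395267 UMIs in B16F0, with medians of 36247.5 and 38376 UMIs per cell for B16F10 and B16F0. The same barcode occurred in both libraries 6 times, and in 1 of these both cells lay in state 1.

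The cells that share the state were not placed alike by the authors' other annotations. The median pseudotime, the authors' position along the trajectory, was 10.8 in B16F10 and 5.35 in B16F0. Only 2 of the 165 B16F0 cells lay above the 5th percentile of the B16F10 cells, which was 8.76, while 413 of the 1254 B16F10 cells (32.9%) lay within the range of the B16F0 cells. The upper end of that range was 10.6, whereas the 95th percentile of the B16F0 cells was 7.84. In the authors' finer clustering 1014 of the B16F10 cells belonged to cluster C5 and 212 to cluster C4, whereas 6 of the B16F0 cells belonged to C5 and 152 to C4. In the coarser clustering into F10 and F0, cluster F10 took 1234 of the 1254 B16F10 cells and 61 of the 165 B16F0 cells. Nearly all the cells were cycling by the authors' class, 1213 of 1254 in B16F10 (96.7%) and 165 of 165 in B16F0 (at least 97.8% by the exact interval). The G2/M score was at least as high as the S score in 48.2% of the B16F10 cells (45.4% to 51.0%) and in 63.6% of the B16F0 cells (55.8% to 71.0%).

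**Figure D1:**
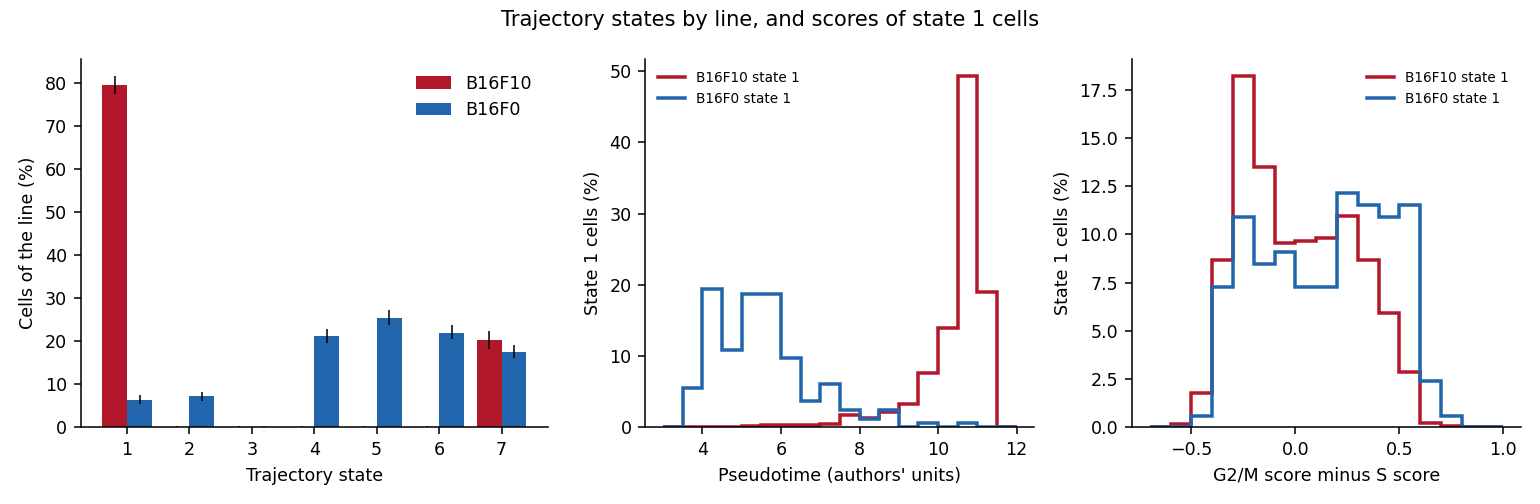
Left, share of the cells of each line in each trajectory state, with exact 95% intervals. Middle and right, distribution of pseudotime and of the G2/M score minus the S score over the state 1 cells of each line, as percent of those cells. State 1 holds 79.7% of B16F10 and 6.39% of B16F0 cells. The pseudotime of the B16F10 cells is mostly later, with a 5th percentile of 8.76 against a 95th percentile of 7.84 in B16F0. The full range of the B16F0 cells holds 32.9% of the B16F10 cells.

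The melanocytic label held in both lines. Dct, an enzyme of melanin synthesis, stood at 2872 CPM in B16F10 and 3002 CPM in B16F0 state 1 cells, where CPM are the counts of a gene summed over the cells of a group and scaled to a common total. Tyrp1, a second enzyme of the pathway, stood at 2216 CPM in B16F10 and 1782 CPM in B16F0. The lineage regulator Sox10 was at 107 CPM in B16F10 and 74.9 CPM in B16F0, and Mitf, the master regulator of melanocytes, was at 155 CPM in B16F10 and 92.1 CPM in B16F0. Of 10 fibroblast markers 5 were in the counts, summing to 9.74 CPM in B16F10 and 9.69 CPM in B16F0. Of 10 macrophage markers 4 were in the counts, with 3.47 CPM in B16F10 and 4.53 CPM in B16F0. Of 10 T and NK cell markers 1 was in the counts, with 1.36 CPM in B16F10 and 2.35 CPM in B16F0, and of 10 keratinocyte markers 2, with 0.0431 CPM in B16F10 and 0.156 CPM in B16F0. The 4 endothelial markers in the counts, of 10, summed to 64.3 CPM in B16F10 and 59.6 CPM in B16F0, nearly all of it Egfl7.

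Promoters of 3 genes are shown because they lead the groups described below: Slc7a11 and Srxn1 were among the 12 lowest line ratios in state 1 at 50 CPM or more, and Prc1 was among those highest in B16F0 state 1 against other B16F0 cells. Each is the RefSeq window from 250 bases before to 50 bases after the transcript start on GRCm38.p6, given 5' to 3' on the gene's strand. Capitals mark TGATGNAA in Slc7a11, the core of the element bound by ATF4 in amino acid stress. In Srxn1 they mark TGANTCAGC, 1 of 2 forms searched of the core of the antioxidant response element. In Prc1 they mark TTTGAA, the cell cycle homology region of many mitotic genes. All motifs were searched on both strands, and TGANTCAGC overlaps the AP-1 site TGANTCA.
Slc7a11, chr3:50443564-50443863, minus strand: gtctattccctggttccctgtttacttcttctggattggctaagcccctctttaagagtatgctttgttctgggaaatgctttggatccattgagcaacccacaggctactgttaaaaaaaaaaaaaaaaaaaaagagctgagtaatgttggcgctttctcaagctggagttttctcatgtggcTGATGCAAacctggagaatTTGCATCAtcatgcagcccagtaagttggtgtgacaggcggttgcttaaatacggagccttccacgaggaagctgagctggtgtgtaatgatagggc
Srxn1, chr2:152105274-152105573, plus strand: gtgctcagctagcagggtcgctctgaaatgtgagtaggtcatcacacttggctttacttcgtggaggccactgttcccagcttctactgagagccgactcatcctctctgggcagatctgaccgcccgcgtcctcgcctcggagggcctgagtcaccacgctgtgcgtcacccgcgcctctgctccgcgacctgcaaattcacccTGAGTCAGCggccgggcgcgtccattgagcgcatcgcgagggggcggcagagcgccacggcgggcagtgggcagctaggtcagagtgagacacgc
Prc1, chr7:80294201-80294500, plus strand: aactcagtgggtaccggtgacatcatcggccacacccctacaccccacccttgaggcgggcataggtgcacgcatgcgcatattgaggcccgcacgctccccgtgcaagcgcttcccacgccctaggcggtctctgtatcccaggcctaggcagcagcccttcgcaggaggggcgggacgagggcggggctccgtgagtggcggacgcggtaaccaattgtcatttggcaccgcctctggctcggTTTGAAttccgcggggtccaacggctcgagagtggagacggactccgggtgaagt
TGATGNAA was present in 3.97% of 32851 mouse promoter windows and occurred at 2 places in the Slc7a11 window, one on each strand. It was present in 1 of 29 windows of the oxidative stress and iron list, 3.45%, which holds Slc7a11, and in 6 of 25 windows of the unfolded protein response and ATF4 list, 24.0%. TGANTCAGC was present in 1.19% of the windows and in 3 of 29 windows of the oxidative stress and iron list, 10.3%. The looser form TGACNNNGC was present in 12.4% of the windows and in 7 of 29 windows of that list, 24.1%. It was also in 6 of 25 windows of the unfolded protein response and ATF4 list, 24.0%. TTTGAA was present in 17.9% of the windows and in 35 of 53 windows of the G2 and M phase list, 66.0%. A match describes the letters of the window and not a bound site.

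Between B16F10 and B16F0 state 1 cells, B16F10 had 70 genes higher and 97 genes lower by 2-fold or more, of 5494 genes with 20 CPM or more in the higher line. These are 1.27% and 1.77% of the genes measured, and the median log2 ratio of all of them was 0.003. At the smaller fold used for gene lists, 1.5-fold with 10 CPM or more, 6.65% of 7524 genes were higher and 7.47% lower in B16F10.

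The highest ratio was that of Ddah2, an enzyme that degrades methylated arginine, which had 20.8 CPM in B16F10 and 0.156 CPM in B16F0, where it rests on 1 UMI, a log2 ratio of 7.05 (4.57 to 12.36). Arl11 had 21.9 CPM in B16F10 and 4.22 CPM in B16F0, and the noncoding Mir670hg had 26.6 CPM in B16F10 and 6.41 CPM in B16F0. The genes described next had 50 CPM or more in the higher line, where Ppargc1a, Tmsb4x and Met had the highest ratios. Ppargc1a, a coactivator of mitochondrial biogenesis on chromosome 5 (51454250 to 51567726, GRCm38), stood at 106 CPM in B16F10 and 4.07 CPM in B16F0, a log2 ratio of 4.71 (4.15 to 5.32). Tmsb4x, thymosin beta 4, which binds actin monomers, stood at 94.9 CPM in B16F10 and 4.69 CPM in B16F0, with a log2 ratio of 4.34 (3.82 to 4.91). The growth factor receptor gene Met on chromosome 6 (17463800 to 17573980), whose ligand is HGF, stood at 134 CPM in B16F10 and 15.0 CPM in B16F0, a log2 ratio of 3.16 (2.87 to 3.46). The share of cells with a UMI differed as well, though such a share rises with the level and is not a separate result. At 24413 UMIs per cell, Met was seen in 82.9% of 1128 B16F10 cells and 22.9% of 140 B16F0 cells, against 88.5% in B16F10 and 36.4% in B16F0 before thinning. Tmsb4x was seen in 65.0% of thinned B16F10 cells and in 5.71% of thinned B16F0 cells, against 72.1% in B16F10 and 7.27% in B16F0 before thinning. No cell type that should lack these transcripts was present, so the part of free RNA in these shares was not tested.

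The phosphodiesterase Pde10a had 92.5 CPM in B16F10 and 12.2 CPM in B16F0, and Lhfp had 58.5 CPM in B16F10 and 10.3 CPM in B16F0. The galectin Lgals3 stood at 442 CPM in B16F10 and 126 CPM in B16F0, a log2 ratio of 1.81 (1.71 to 1.92). The other genes among the 12 with the highest ratios at 50 CPM or more were Cdc42ep5, Evl, Fam198b, Marcksl1, Pla2g2e and Mc1r, with log2 ratios from 1.40 to 1.63. Mc1r, the melanocortin receptor that drives eumelanin synthesis, had 81.5 CPM in B16F10 and 30.8 CPM in B16F0. The log2 ratio of Marcksl1, a regulator of actin, was 1.44 over all state 1 cells and 0.03 among the C4 cells of both lines.

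The lowest ratios at 20 CPM were those of Ptprb, a receptor phosphatase, at 0.345 CPM in B16F10 and 36.0 CPM in B16F0, a log2 ratio of -6.71 (-7.54 to -5.97), and of Hspb1, a small heat shock protein, at 0.646 CPM in B16F10 and 21.0 CPM in B16F0, a log2 ratio of -5.02 (-5.64 to -4.44). Rab29 had 3.81 CPM in B16F10 and 25.6 CPM in B16F0. At 50 CPM or more in the higher line Slc7a11 had the lowest ratio. Slc7a11, the cystine importer that feeds glutathione synthesis on chromosome 3 (49892526 to 50443614), stood at 57.5 CPM in B16F10 and 378 CPM in B16F0, a log2 ratio of -2.72 (-2.80 to -2.64). Ptgds, prostaglandin D synthase, stood at 196 CPM in B16F10 and 1187 CPM in B16F0, a log2 ratio of -2.60 (-2.64 to -2.55). Hmox1, the heme oxygenase induced by oxidative stress, stood at 30.9 CPM in B16F10 and 162 CPM in B16F0, a log2 ratio of -2.39 (-2.50 to -2.27). Slc7a11 was read in most cells of both lines, 59.5% of thinned B16F10 and 99.3% of thinned B16F0 cells. A lower level by itself lowers such a share. Tyr, which encodes the first enzyme of the melanin pathway, stood at 17.5 CPM in B16F10 and 84.1 CPM in B16F0. The chemokine Ccl5 stood at 14.6 CPM in B16F10 and 84.6 CPM in B16F0, but was seen in only 3.01% of thinned B16F10 and 10.0% of thinned B16F0 cells, so a minority of cells set its sums. The remaining genes among the 12 lowest at 50 CPM or more were Fam178b, Mgst1, Bfsp2, Maoa, Cited1, Ero1l and Srxn1, with log2 ratios from -2.39 to -1.69.

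**Figure D2:**
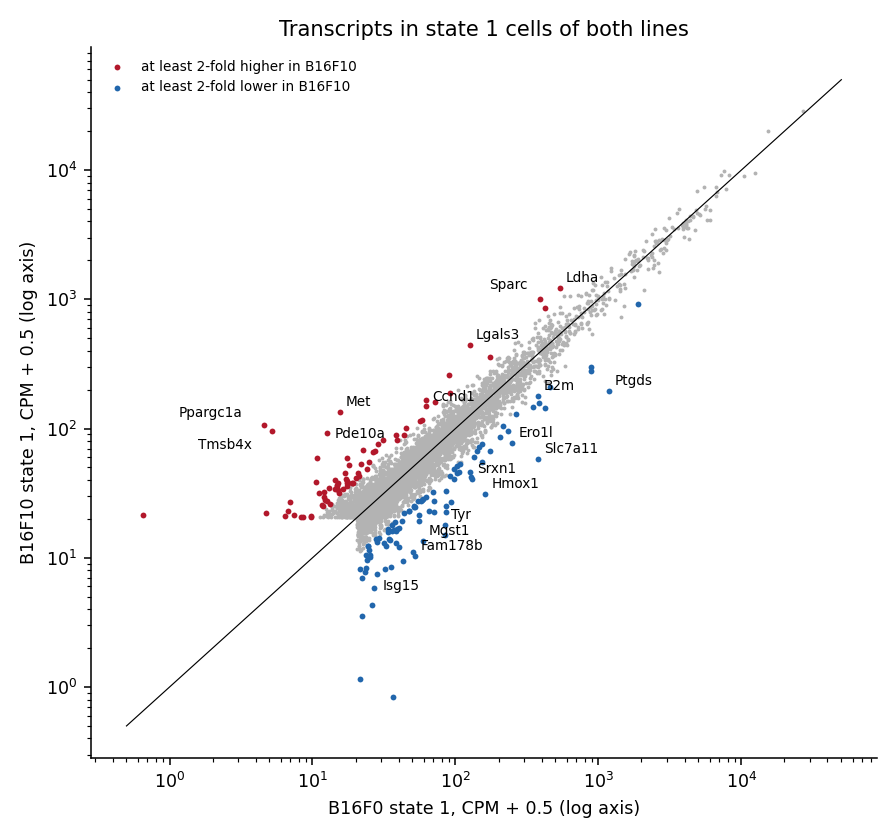
CPM plus 0.5 in state 1 cells of B16F10 (vertical, log axis) against B16F0 (horizontal, log axis), for genes with 20 CPM or more in either line, 1 point per gene. Coloured points are the 70 genes higher and the 97 genes lower in B16F10 by 2-fold or more.

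The oxidative stress and iron list lay on the lower side, with 15 of 24 measured members at least 1.5-fold lower, 1 higher and a median log2 ratio of -0.68. The glutathione branch contributed Slc7a11 and Gclm, the regulatory subunit of the enzyme that makes gamma-glutamylcysteine, at 66.8 CPM in B16F10 and 173 CPM in B16F0. The thioredoxin branch contributed Srxn1, sulfiredoxin, at 40.0 CPM in B16F10 and 129 CPM in B16F0. It also contributed Txnrd1, thioredoxin reductase, at 130 CPM in B16F10 and 209 CPM in B16F0, and Prdx1, a peroxiredoxin, at 1176 CPM in B16F10 and 2091 CPM in B16F0. The pentose phosphate enzymes G6pdx and Taldo1, which supply NADPH, had log2 ratios of -0.96 and -0.63. The member that was higher was Gpx1, a glutathione peroxidase, at 159 CPM in B16F10 and 87.9 CPM in B16F0. The ferritin chains Fth1 and Ftl1, log2 ratios -0.40 and 0.10, stayed within 1.5-fold.

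Genes of the unfolded protein response and ATF4 did not move as one. Of 22 measured members 3 were higher and 9 lower in B16F10, with a median of -0.37. The 3 higher were chaperones of the endoplasmic reticulum, Hsp90b1 at 444 CPM in B16F10 and 286 CPM in B16F0, Pdia6 at 180 CPM in B16F10 and 116 CPM in B16F0, and Sdf2l1 at 101 CPM in B16F10 and 65.2 CPM in B16F0. The lower ones included Atf4 itself, 256 CPM in B16F10 and 407 CPM in B16F0, and its targets Trib3, at 147 CPM in B16F10 and 348 CPM in B16F0, and Asns, asparagine synthetase, at 95.4 CPM in B16F10 and 231 CPM in B16F0. Ero1l, the oxidase of the same compartment, stood at 77.0 CPM in B16F10 and 249 CPM in B16F0.

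Genes of interferon response, antigen presentation and the lysosome had more members lower than higher in B16F10. Of 12 interferon-stimulated genes measured 8 were lower and 1 higher, with a median of -0.90, among them Isg15 at 6.94 CPM in B16F10 and 27.8 CPM in B16F0. Of 6 genes of MHC class I measured 3 were lower, led by B2m, the light chain of the complex, at 179 CPM in B16F10 and 377 CPM in B16F0. The median of this list was -0.41, but 0.43 over 5 measured genes, 2 higher and 2 lower, when B16F0 was limited to its 61 cells of cluster F10. Of 28 lysosome and autophagy genes 4 were lower and 0 higher, led by Sqstm1, the p62 autophagy receptor, at 143 CPM in B16F10 and 421 CPM in B16F0. The list called secreted factors, which also holds the intracellular prostaglandin D synthase Hpgds, had 4 of 8 measured members lower. These were Ptgds, Hpgds and the chemokines Ccl5 and Cxcl10. The 1 higher member was the growth factor Pdgfa, at 37.6 CPM in B16F10 and 17.2 CPM in B16F0.

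Pigment genes were not shifted as one. Of 17 measured 2 were higher in B16F10, Mc1r and Rab27a, and 5 were lower, Tyr, Trpm1, Pmel, Mlana and Cd63, with a median of -0.06. Pmel, which forms the fibrils of the pigment granule, stood at 728 CPM in B16F10 and 1445 CPM in B16F0. The authors' score for MITF had a median of -0.195 in B16F10 and 0.0254 in B16F0 state 1 cells, while the Mitf transcript itself was higher in B16F10, with a log2 ratio of 0.75 (0.63 to 0.88).

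Glycolytic genes were higher in B16F10, 12 of 16 measured, with 0 lower and a median of 0.85. Ldha, the lactate dehydrogenase subunit of glycolytic tissue, stood at 1219 CPM in B16F10 and 537 CPM in B16F0. Eno1, an enolase, stood at 863 CPM in B16F10 and 421 CPM in B16F0, and Pfkl, a phosphofructokinase, at 31.3 CPM in B16F10 and 10.6 CPM in B16F0. The monocarboxylate exporter Slc16a3 had 11.2 CPM in B16F10 and 2.35 CPM in B16F0. Gapdh, at 2887 CPM in B16F10 and 2668 CPM in B16F0, stayed within 1.5-fold. The mesenchymal and invasion list had 5 of 10 measured members higher, 0 lower and a median log2 ratio of 0.74. Sparc, a secreted matrix protein, stood at 1004 CPM in B16F10 and 390 CPM in B16F0, and the hyaluronan receptor Cd44 at 155 CPM in B16F10 and 81.3 CPM in B16F0. Vim and Lgals1 of the same list, with log2 ratios of -0.28 and -0.17, did not follow. For the 13 transcripts of the mitochondrial genome the median log2 ratio was 0.44, with 2 of them past 1.5-fold, beside a mitochondrial share of all UMIs of 6.55% in B16F10 and 5.05% in B16F0.

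Cell cycle genes differed by phase. Of 53 G2 and M phase genes measured 16 were lower in B16F10 and 0 higher, with a median of -0.43. Cdc20, an activator of the anaphase-promoting complex, stood at 47.8 CPM in B16F10 and 97.1 CPM in B16F0, and Nusap1, a spindle protein, at 40.2 CPM in B16F10 and 97.3 CPM in B16F0. Of 42 S phase genes 5 were higher and 3 lower, with a median of 0.21. Ung, the uracil glycosylase of replication forks, stood at 28.9 CPM in B16F10 and 11.6 CPM in B16F0. Cyclin D1, Ccnd1, stood at 148 CPM in B16F10 and 61.8 CPM in B16F0, while the inhibitor Cdkn1a stood at 156 CPM in B16F10 and 304 CPM in B16F0. These values stand beside the smaller share of G2/M-leaning cells in B16F10 given above, and with S-leaning and G2/M-leaning cells weighted alike in both lines the G2 and M phase list had 8 of 53 genes lower, 0 higher and a median of -0.29. The S phase list then had 1 gene higher, 3 lower and a median of 0.03.

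**Figure D3:**
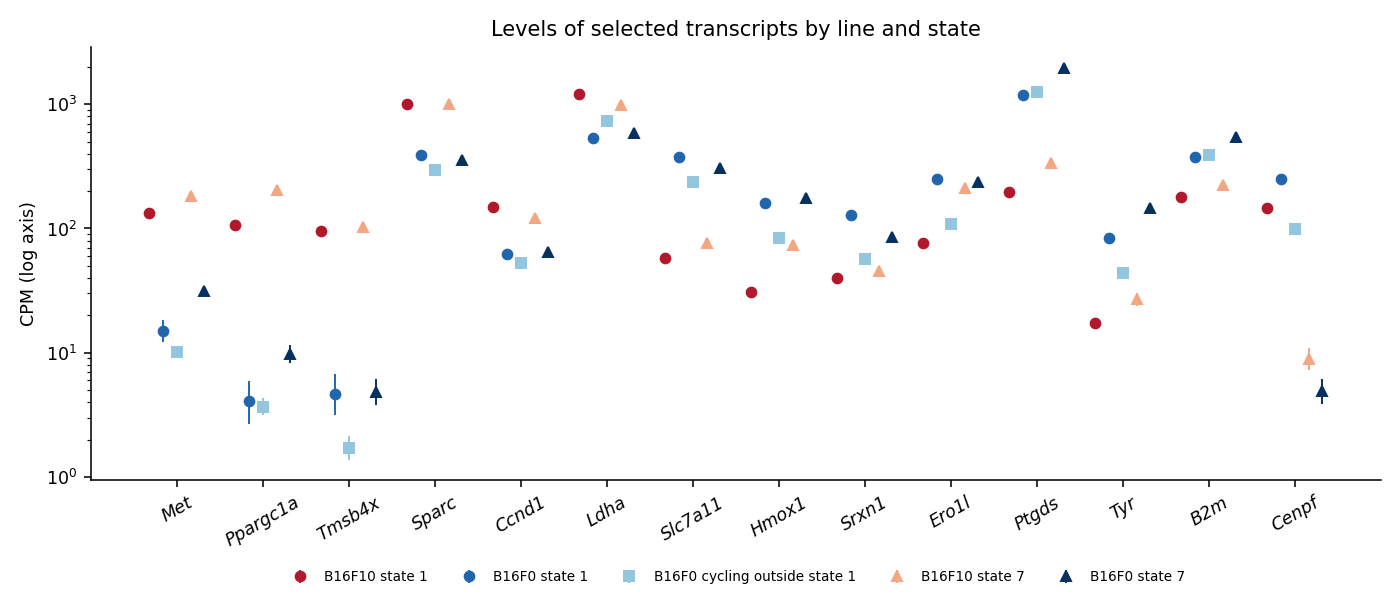
CPM with exact Poisson 95% intervals (log axis) of 14 transcripts in state 1 cells of B16F10 and B16F0, in cycling B16F0 cells outside state 1, and in state 7 cells of B16F10 and B16F0. Met, Ppargc1a and Tmsb4x are higher in B16F10 in both states, and Ero1l is lower in B16F10 in state 1 but at a similar level in both lines in state 7.

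Because the lines occupied different clusters within the state, the comparison was also made over cells of cluster C4 alone, 212 from B16F10 and 152 from B16F0. There B16F10 had 142 genes higher (2.51%) and 202 genes lower (3.57%) by 2-fold or more, and at 1.5-fold 12.9% of genes were higher and 12.6% lower. The mitochondrial share was 8.43% in these B16F10 cells and 4.97% in these B16F0 cells, with medians of 29693 UMIs in B16F10 and 38484.5 UMIs in B16F0; their part in the result was not tested. The genes at the ends kept their direction: the log2 ratio among C4 cells was 5.43 for Ppargc1a, 3.96 for Tmsb4x, 3.03 for Met, -3.40 for Ptgds and -1.72 for Slc7a11. The oxidative stress and iron list went further down, with 18 of 24 members lower, 1 higher and a median of -1.16.

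The glycolytic difference was not seen among C4 cells, where 1 of 14 measured members was higher, 1 lower and the median was 0.08. Ldha stood at 446 CPM in B16F10 and 523 CPM in B16F0 cells of C4, a log2 ratio of -0.23, against 1357 CPM in the B16F10 cells of C5. The metalloproteinase inhibitor Timp2 had a log2 ratio of 1.05 over all state 1 cells and of -0.36 among C4 cells. The mesenchymal and invasion list, with 0 members lower over all state 1 cells, had 4 of 10 higher and 3 lower among C4 cells, with a median of 0.32. Gadd45a and Ppp1r15a turned the other way, whereas the unfolded protein response and ATF4 list did not, with 3 of 22 members higher, 6 lower and a median of -0.31 among C4 cells. The count of 3 does not show that the same members were higher. Over the alternative settings the log2 ratio of Pdia6 ranged from -0.56 to 0.81. Ppp1r15a, the phosphatase subunit that ends the integrated stress response, stood at 67.1 CPM in B16F10 and 112 CPM in B16F0 over all state 1 cells, but at 250 CPM in B16F10 and 115 CPM in B16F0 among C4 cells. Gadd45a, a growth arrest gene, stood at 43.2 CPM in B16F10 and 79.4 CPM in B16F0 over all state 1 cells, but at 129 CPM in B16F10 and 82.2 CPM in B16F0 among C4 cells. B16F10 cells of C5 had 35.3 CPM of Ppp1r15a and 27.8 CPM of Gadd45a. The proteasome, within 1.5-fold for all 28 genes over all state 1 cells, had 19 of 28 genes lower in B16F10 among C4 cells, with a median of -0.72.

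**Figure D4:**
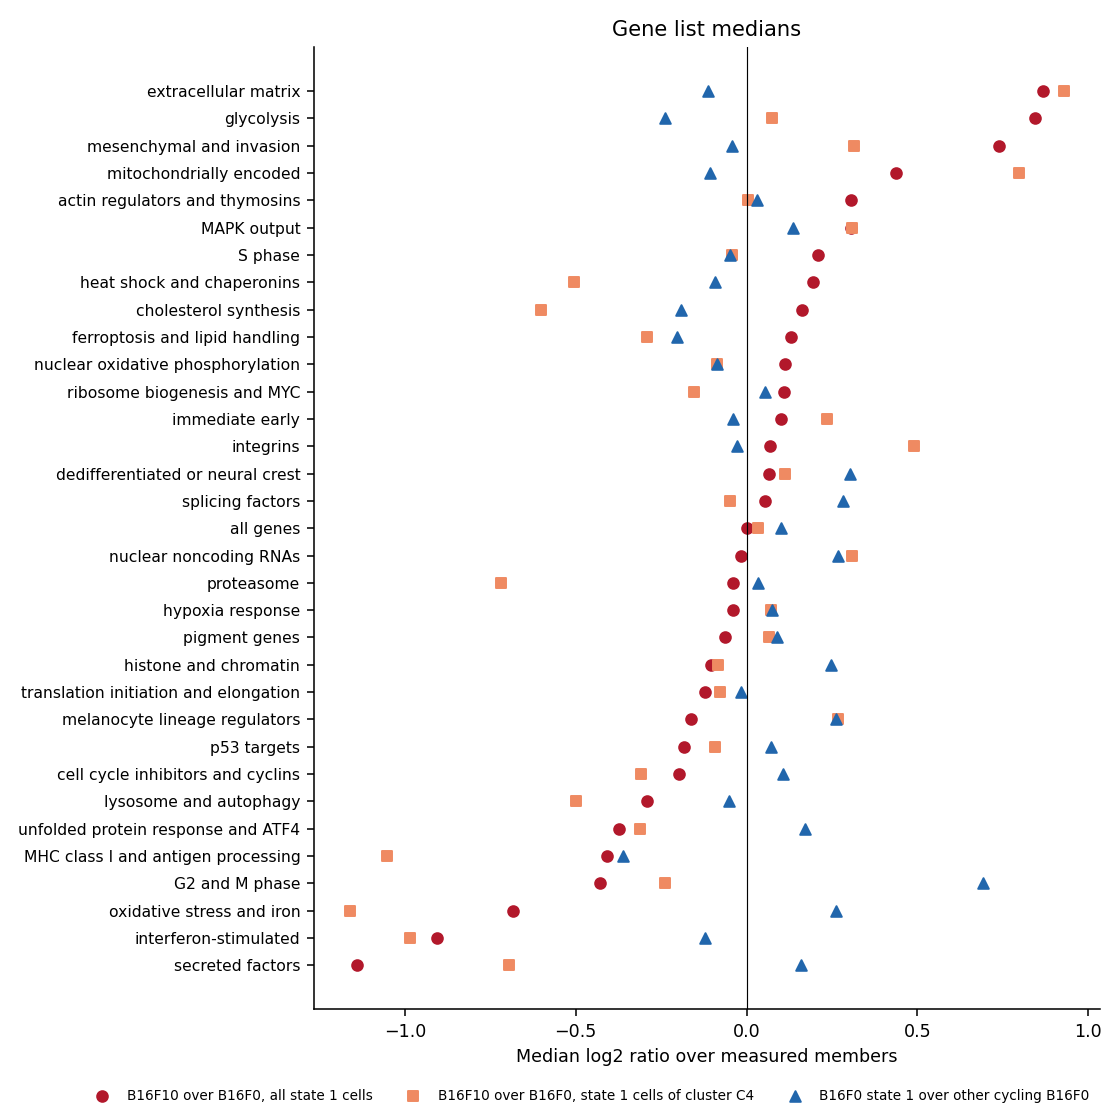
Median log2 ratio over the measured members of each gene list, for B16F10 over B16F0 in all state 1 cells (circles), for B16F10 over B16F0 in state 1 cells of cluster C4 (squares), and for B16F0 state 1 over other cycling B16F0 cells (triangles). Oxidative stress and iron lies below 0 in both line comparisons, while glycolysis lies at 0.85 over all state 1 cells and at 0.08 among C4 cells.

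Within B16F0, the 165 state 1 cells were set against the other 2417 cells. State 1 had 157 genes higher and 33 genes lower by 2-fold or more, 2.96% and 0.623% of 5301 genes, and at 1.5-fold 10.2% were higher and 2.99% lower. The median log2 ratio of all genes was 0.13, and with edgeR's TMM factors it moved by -0.14, which left 112 higher and 45 lower. All 165 state 1 cells were cycling against 1246 of the other 2417, and the G2 and M phase list had 51 of 53 genes higher, 0 lower and a median of 1.38. The comparison was therefore repeated against the 1246 other cycling B16F0 cells, where 46 genes were higher (0.867% of 5304) and 25 lower (0.471%), and at 1.5-fold 6.04% were higher and 2.17% lower. There 36 of 53 G2 and M phase genes were higher and 0 lower, with a median of 0.69, while the S phase list had 2 higher, 3 lower and a median of -0.05. The G2/M score was at least as high as the S score in 63.6% of state 1 cells and 42.2% of other cycling B16F0 cells. With S-leaning and G2/M-leaning cycling cells weighted alike, 27 genes were higher and 22 lower. Over the alternative settings, which include state 2 alone, the median of the G2 and M phase list ranged from 0.06 to 1.54. Against state 2 alone, 0 lists lay at least 0.3 above all genes, so the G2 and M phase list did not stand apart there.

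Mitotic genes stood on the higher side against other cycling cells. Cenpf, a kinetochore protein, had 248 CPM in B16F0 state 1 cells and 98.3 CPM in other cycling B16F0 cells, a log2 ratio of 1.34. Prc1, which bundles the central spindle, had 151 CPM in B16F0 state 1 cells and 62.3 CPM in other cycling cells, and the kinase Plk1 had 65.5 CPM in state 1 and 28.0 CPM in other cycling cells. Over the alternative settings, state 2 alone among them, the lowest log2 ratio was 0.34 for Cenpf, 0.35 for Prc1 and 0.31 for Plk1. Other cell cycle genes turned lower against state 2, with log2 ratios of -0.27 for Ccna2, -0.14 for Nusap1 and -0.076 for Birc5. The unfolded protein response and ATF4 list had 2 of 22 genes higher and 0 lower, beside 6.04% higher of all genes, and p53 targets had 0 of 12 higher and 0 lower. Single genes of stress were higher all the same. Gadd45a had 79.4 CPM in state 1 and 26.7 CPM in other cycling cells, a log2 ratio of 1.57. Ero1l had 249 CPM in state 1 and 108 CPM in other cycling cells, and Srxn1 had 129 CPM in state 1 and 56.4 CPM in other cycling cells. The oxidative stress and iron list had 7 of 24 genes higher and 0 lower than in other cycling B16F0 cells. Its median was 0.26, beside 0.10 for all genes, and was as low as 0.06 over the alternative settings. Slc7a11 had 378 CPM in state 1 and 236 CPM in other cycling B16F0 cells, and Hmox1 had 162 CPM in state 1 and 83.2 CPM in other cycling B16F0 cells. Both levels in other cycling B16F0 cells were still above those of B16F10 state 1. Over the alternative settings the lowest log2 ratio was 0.47 for Slc7a11, 0.16 for Hmox1 and 0.68 for Srxn1.

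The lowest ratio at 20 CPM was that of the S100 gene S100a6, with 3.28 CPM in B16F0 state 1 cells and 31.4 CPM in other cycling cells, a log2 ratio of -3.26 (-3.95 to -2.64). At 50 CPM or more it was that of Rad54l, a DNA repair translocase on chromosome 4, with 15.5 CPM in B16F0 state 1 cells and 77.8 CPM in other cycling cells, a log2 ratio of -2.33 (-2.63 to -2.04). Fam178b had 51.4 CPM in state 1 and 144 CPM in other cycling cells, and Mbp, myelin basic protein, had 71.2 CPM in state 1 and 168 CPM in other cycling cells. A second S100 gene, S100a4, had 1.09 CPM in state 1 and 12.9 CPM in other cycling cells.

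State 2 was the B16F0 state most like state 1 in cell cycle scores, with a median G2/M score of 0.224 in B16F0 state 1 and 0.237 in state 2. Against its 186 cells B16F0 state 1 had 12 genes higher and 8 genes lower by 2-fold or more, 0.225% and 0.15% of 5323 genes. These 20 genes were then measured in other B16F0 cells, as state 7 over state 6. Both of those states were mostly non-cycling, with median G2/M scores of -0.273 in state 7 and -0.266 in state 6. Of the 12 higher genes 8 were at least 2-fold higher in state 7 and 10 had the same sign, and all 8 of the lower genes were at least 2-fold lower in state 7, beside 0.62% higher and 0.806% lower of 4841 genes. The cells of state 7 and state 6 share no cell with states 1 and 2 but come from the same library. All these states were also cut from the same trajectory, which was made from the expression of these cells. The overlap is therefore a description and not independent support.

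The levels show how alike states 1 and 7 of B16F0 were in these genes. Grb14, an adaptor that restrains insulin receptor signalling, had 21.6 CPM in B16F0 state 1 and 20.5 CPM in B16F0 state 7, against 2.61 CPM in state 2, 4.25 CPM in state 4, 4.04 CPM in state 5 and 2.52 CPM in state 6. Rad54l had 15.5 CPM in state 1 and 7.58 CPM in state 7, against 63.9 CPM in state 2, 87.0 CPM in state 4, 75.0 CPM in state 5 and 90.8 CPM in state 6. S100a6 had 3.28 CPM in state 1 and 6.85 CPM in state 7, against 26.1 CPM to 62.9 CPM in states 2, 4, 5 and 6. Thus a cycling and a mostly non-cycling group of B16F0 cells shared low Rad54l and S100a6 and high Grb14, and the other states with over 2 cells did not. Ptprb, a receptor phosphatase, had 36.0 CPM in B16F0 state 1 and 40.5 CPM in B16F0 state 7, against 9.39 CPM to 17.9 CPM in the others. Lgals3 had 126 CPM in B16F0 state 1 and 194 CPM in B16F0 state 7, against 47.8 CPM to 87.1 CPM in the others. The exceptions were Ccl5 and Ifit1, which were higher in state 1 than in state 2 and lower in state 7 than in state 6.

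**Figure D5:**
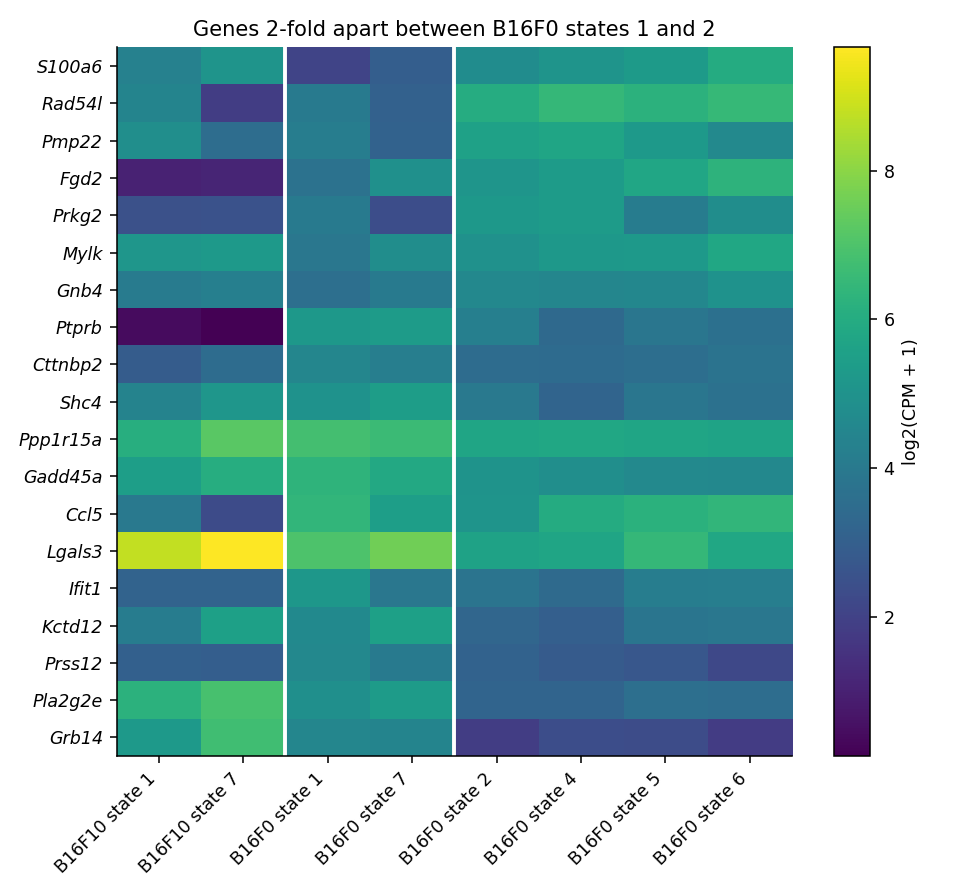
Levels, as log2(CPM + 1), of 19 of the 20 genes at least 2-fold apart between B16F0 states 1 and 2 (1 predicted gene is left out), by line and state. In most rows the B16F0 columns of states 1 and 7 differ from those of states 2, 4, 5 and 6 in the same direction.

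In B16F10 these genes did not all follow. Grb14 had 38.1 CPM in B16F10 state 1 and 105 CPM in B16F10 state 7, and Lgals3 had 442 CPM in state 1 and 806 CPM in state 7, both above every B16F0 state. Rad54l had 20.5 CPM in B16F10 state 1 and 2.63 CPM in B16F10 state 7, both nearer to B16F0 states 1 and 7 than to the other B16F0 states. Ptprb, in contrast, had 0.345 CPM in B16F10 state 1 and 0.0973 CPM in B16F10 state 7.

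Between the 61 B16F0 state 1 cells that the authors placed in cluster F10 and the 104 in cluster F0, 34 genes were higher (0.621% of 5472) and 38 lower (0.694%) in the F10 cells by 2-fold or more. Of 3 genes chosen after their values were seen, Gadd45a had 144 CPM in the F10 cells and 43.9 CPM in the F0 cells, Ppp1r15a had 194 CPM in the F10 cells and 67.2 CPM in the F0 cells, and Cdc20 had 41.3 CPM in the F10 cells and 128 CPM in the F0 cells. The median G2/M score was 0.106 in the F10 cells and 0.305 in the F0 cells. The median S score was 0.122 in the F10 cells and 0.0285 in the F0 cells, and the part of phase was not tested.

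The line difference in state 1 was finally set against the line difference in other cells. Outside state 1, B16F10 had 160 genes higher (3.06% of 5224) and 239 lower (4.58%) by 2-fold or more. Of these, 49 of 160 (30.6%) and 54 of 239 (22.6%) were also at least 2-fold apart the same way in state 1. Over all 5494 genes with 20 CPM or more in state 1, 1.27% were higher and 1.77% lower, with a median log2 ratio of 0.003. The cells outside state 1 differ in cell cycle between lines, with 17 of 320 cycling in B16F10 and 1246 of 2417 in B16F0. In state 7, where both lines were mostly non-cycling, B16F10 had 84 genes higher (1.64% of 5111) and 83 lower (1.62%). Of these 47 of 84 (56.0%) and 55 of 83 (66.3%) passed 2-fold in state 1 as well, and all 84 and all 83 had the same sign there. Between state 1 and state 7 the line ratio differed at least 2-fold for 13 of 2520 genes, 2 with a higher and 11 with a lower ratio in state 1.

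The 11 genes with a lower ratio in state 1 were Ero1l, Cdkn1a, Ppp1r15a, Birc5, Snhg12, Hmox1, Nupr1, Cyb5r1, Lhfp, Gadd45a and Angptl6. The log2 line ratio of Ero1l was -1.70 in state 1 and -0.17 in state 7, a difference of -1.52 (-1.64 to -1.41). That of Cdkn1a was -0.96 in state 1 and 0.46 in state 7, that of Ppp1r15a was -0.74 in state 1 and 0.60 in state 7, and that of Hmox1 was -2.39 in state 1 and -1.25 in state 7. Those with a higher ratio were Cacybp and Manf. The ratio of Cacybp was 0.34 in state 1 and -0.69 in state 7, and that of Manf, a secreted protein of the endoplasmic reticulum, was 0.41 in state 1 and -0.61 in state 7. The difference of ratios was not tested, since each line had 1 library.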

How the data were processed

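The deposited table of raw UMI counts covers 14959 genes in 4156 cells, per the file headers. A second deposited table gives each cell's line, trajectory state, clusters, cycling class and pseudotime, with the authors' scores for S phase, G2/M and MITF (GSVA). The submitters' processing notes list Cell Ranger 3.0.0, Seurat 3.0 and build mm10 without saying what each was used for, and the making of the classes and scores is not described in the sources used.

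The counts of all cells in a group were added per gene and scaled to CPM. Log2 ratios carry exact conditional binomial 95% intervals, CPM exact Poisson intervals and shares exact Clopper-Pearson intervals. A gene counts as higher or lower at 2-fold with 20 CPM or more in the higher group, a list member at 1.5-fold with 10 CPM, for lists with 3 or more measured members. A count of 0 was treated as at most 3 counts. Cells are not replicates, so nothing was tested, and all deposited cells were kept with no doublet caller. For shares of cells with a UMI, each cell was thinned to 24413 UMIs, the 10th percentile of B16F10 state 1 cells, which left out 126 B16F10 and 25 B16F0 cells of state 1.

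Members, gene lists and tests were chosen with earlier results of these data known. Named are the 12 highest and 12 lowest line ratios in state 1, and the 10 highest and 10 lowest ratios of B16F0 state 1 over other B16F0, at 50 CPM or more without predicted, ribosomal protein and mitochondrially encoded genes. Also named are the 8 largest and 8 smallest differences of line ratios, the 3 members of each list with the largest ratio at 20 CPM, and a fixed set of melanoma genes. The comparisons with other cycling B16F0 cells, state 2, state 7 and clusters C4 and F10, the genes with a 4-fold line ratio at 20 CPM, and the genes and other list members named from them, were chosen after values were seen. Not every list member that passed is reported here by name. Gene positions are from GENCODE M21 on GRCm38, which is the build mm10, where 14751 symbols (98.6%) matched 1 gene. Promoters are RefSeq's on GRCm38.p6. Ratios and intervals were tested on simulated counts. The work used R 4.3.3 with edgeR 4.0.16 and DESeq2 1.42.0 for scaling factors, and Python 3.11.15 with pandas 2.3.3, scipy 1.17.1, numpy 2.4.6 and matplotlib 3.10.9.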

Additional observations from a re-analysis of the deposited data

Results flagged for a closer look

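For 7 genes the line ratio, B16F10 over B16F0, was at least 1.5-fold in one direction in state 1 and at least 1.5-fold in the other direction in the cells outside state 1. The differences of the log2 ratios, state 1 minus outside, were -2.46 for Ero1l, -2.04 for Ppp1r15a, -1.95 for Gadd45a and -1.27 for Gtpbp2, and 2.33 for Uhrf1, 2.27 for Rrm2 and 1.97 for Lig1. The first 4 are stress genes that were lower in B16F10 in state 1, and the last 3 are genes of DNA replication that were higher there. These differences were not tested, because each line had 1 library. Outside state 1, 17 of 320 B16F10 cells and 1246 of 2417 B16F0 cells were cycling by the authors' class, and the part of this in the differences was not tested. When state 7 alone took the place of all cells outside state 1, 1 of the 7 genes still had line ratios 1.5-fold apart in opposite directions, Ppp1r15a, with -0.74 in state 1 and 0.60 in state 7.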

How the results depend on the processing

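No paired analysis was possible because each line had 1 library. Non-cycling cells only, and classes weighted alike, could not be run for any result, since no B16F0 state 1 cell was non-cycling.

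For B16F10 over B16F0 in state 1, the counts of 70 higher and 97 lower genes became 142 and 202 in cluster C4, 660 and 2497 with no CPM minimum, and 14 and 29 at 100 CPM, and the higher count became 129 with the B16F0 cells of cluster F10 only. Among named genes at least 2-fold apart over all state 1 cells, the log2 ratio in C4 turned to 0.28 for Angptl6, 0.39 for Cyb5r1, -0.011 for Dhcr7, -0.23 for Ldha, 0.71 for Nupr1 and -0.36 for Timp2. Named genes with smaller ratios that turned, such as Gadd45a and Ppp1r15a, are not listed here. Among C4 cells, 3 lists lay at least 0.3 above and 11 at least 0.3 below all genes. With B16F0 cells of cluster F10 only, Cdc20 turned to 0.21 and the MHC class I median to 0.43.

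For B16F0 state 1 over other B16F0, the 157 higher genes became 46 against cycling cells, 27 with S-leaning and G2/M-leaning cycling cells weighted alike, 12 against state 2, 2463 with no minimum and 36 at 100 CPM. The 33 lower genes became 59 without mitochondrial and ribosomal genes in the total, 8 against state 2, 80 with cluster F10 cells only, 563 with no minimum and 8 at 100 CPM. Among named genes at least 2-fold apart from other B16F0 cells, the log2 ratio against state 2 turned to -0.076 for Birc5, -0.27 for Ccna2, -0.17 for Cdkn2c, -0.020 for Cks2, -0.052 for Cxcl10, 0.37 for Hist1h2bc, -0.10 for Hmgb2, -0.14 for Nusap1, -0.078 for Pclaf, -0.053 for Rad51ap1 and -0.060 for Sgo1. The medians against state 2 turned to -0.10 for S phase and -0.031 for histone and chromatin. Without cells over 8% mitochondrial UMIs Ifit1 turned to -0.045. The S phase median was -0.048 against cycling cells, and that of immediate early genes was 0.047 with phases weighted alike and 0.21 with cluster F10 cells only. Lists at least 0.3 above all genes numbered 1 against cycling cells, 1 with phases weighted alike and 0 against state 2. Lists at least 0.3 below numbered 3 against cycling cells, 4 with phases weighted alike, 1 against state 2, 4 with cluster F0 cells, 12 with cluster F10 cells and 4 at 100 CPM.

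Of 2624 genes, the line ratio was higher in state 1 than outside for 70 and lower for 22, by 2-fold or more. The higher ones numbered 124 among cycling cells, which rest on 17 B16F10 cells outside, and 2 against state 7, and the lower ones 11 against state 7. The shares re-measured in state 1 were 56.0% and 66.3% for genes chosen in state 7, and 28.4% for lower genes at 1.5-fold. Of genes at least 1.5-fold lower in B16F0 state 1 than in state 2, 62.7% passed in state 7 over state 6. The causes were not tested. The other scaling, depth, doublet and barcode alternatives left the counts of both main comparisons within 1.5 times, apart from the settings named.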
